A study of Mus musculus with 12 samples.

Results

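Autophagy machinery and mTOR control genes were followed through 12 RNA-seq libraries of primary mouse microglia, the resident macrophages of the brain. The list was given by name and not by measured values, though it was chosen with earlier results of these data known. It held 43 genes of the 48623 in the table. Each of the 43 matched 1 gene identifier, none was listed at 0 in any library, and 42 passed the expression filter (a mean of log2(TPM + 1) above 1.5), which left 11204 genes for testing. TPM is a read level per length of transcript, as a share of its library's sum, so levels can be set side by side between genes. *Ddit4*, whose product restrains mTORC1 under stress, was the member below the filter, and its TPM lay between 0.0533 and 3.67.

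All cultures were on the C57BL/6J background, and the KI mice were of a Jackson Laboratory line. The 4 groups were wild type (WT) untreated, WT with IL-4, homozygous *Trem2* R47H knock-in (KI) untreated and KI with IL-4, with 3 libraries each, and IL-4 was given at 20 ng/ml for 48 h. WT cultures were named T13, T33 and T43 and KI cultures T15, T22 and T32, and each culture gave 1 untreated and 1 IL-4 library. The cells came from cortex and hippocampus of pups 1 to 3 days old, grew as mixed glia, and were freed of the astrocyte layer by mild trypsin, so other glial RNA can remain. Pups of a KI-line litter were cultured apart at the same time and genotyped afterwards, and the study calls its WT mice littermates, though its methods also describe WT cultures pooled from pups of a litter. The labels do not say which KI and WT cultures, if any, shared a litter, so no litter entered the tests.

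*Trem2* itself, the edited gene, was measured at 1190 to 1886 TPM in the WT and 325 to 770 TPM in the KI libraries (difference -1.43 on the log2(TPM + 1) scale, SE 0.19, limma adjusted p = 0.00763). The amino acid change and the lower *Trem2* level therefore cannot be told apart in these mice. The summed TPM of 18 microglial markers, *Trem2* among them, was 40679 to 53788 in WT and 17448 to 39063 in KI libraries. That of 10 astrocyte markers was 217 to 865 in WT and 294 to 5796 in KI, with both T15 libraries highest (5796 and 4423). That of 10 fibroblast and mural markers was 142 to 617 in WT and 704 to 1327 in KI, and that of 8 oligodendrocyte lineage markers was 33.1 to 93.1 in WT and 93.1 to 455 in KI. The 6 neuronal markers summed to at most 63.6 TPM and the 5 endothelial ones to at most 10.0 TPM, *Syt1*, *Cldn5* and *Tek* being listed at 0 in every library, and the 6 cell division genes to between 127 and 348 TPM. In bulk samples fewer cells of a type and less RNA per cell cannot be told apart. By staining, the study found the share of microglia not substantially changed between WT and homozygous KI cultures, untreated or with IL-4. With acute *Trem2* knockdown it reported lower RNA of microglial genes that include *Csf1r*, *Cd68*, *C1qa* and *Spi1*. Staining counts for the cultures sequenced here are not given in the sources used here.

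Autophagy encloses cytoplasm in a double membrane and delivers it to the lysosome. The Ulk1 kinase complex starts the process, a class III phosphatidylinositol 3-kinase complex marks the membrane, and conjugation enzymes attach the small Atg8 proteins (LC3 and GABARAP) to it, where receptors such as p62 dock their cargo. The kinase mTOR, in the complex mTORC1, holds the Ulk1 complex inactive when nutrients are plentiful. The GTPase Rheb switches mTORC1 on, the Tsc1-Tsc2 complex switches Rheb off, and Ddit4 and the sestrins restrain the pathway under stress. In microglia autophagy is known for its part in degrading engulfed material, and Trem2 signalling has been linked to mTOR activity.

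**Figure D1:**
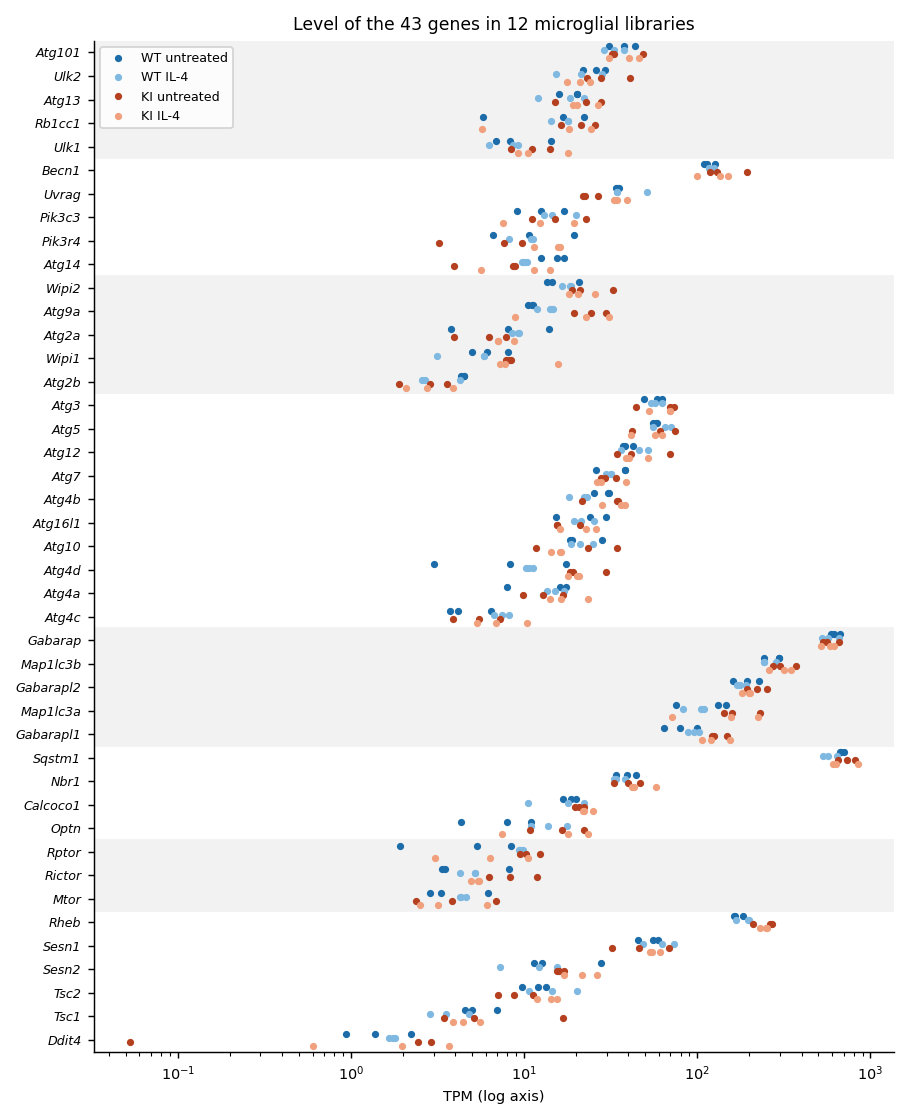
TPM of the 43 genes in each of the 12 libraries on a log axis, 1 point per library, coloured by group. Shaded and white bands separate the roles, from top to bottom initiation, the PI3-kinase complex, lipid transfer and PI3P effectors, conjugation and processing, the Atg8 family, receptors, the mTOR complexes and mTOR control. Mean levels run from 672 TPM (*Sqstm1*) to 1.78 TPM (*Ddit4*), and the points of the 4 groups intermingle in most rows.

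The level of the pathway was carried by few genes. Of the 43 members, 8 had a mean above 100 TPM, 26 lay between 10 and 100 TPM and 9 lay below 10 TPM. Their median mean level was 19.9 TPM, beside 18.0 TPM over all genes tested. The 5 most abundant members, *Sqstm1*, *Gabarap*, *Map1lc3b*, *Rheb* and *Gabarapl2*, made up 64.3% of the summed level of the 43.

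*Sqstm1*, which encodes the cargo receptor p62, was measured in WT, with cultures always in the order T13, T33 and T43, at 676, 708 and 665 TPM untreated and at 566, 533 and 638 TPM after IL-4. In KI, in the order T15, T22 and T32, it was at 816, 735 and 646 TPM untreated and at 847, 604 and 634 TPM after IL-4. The genotypes overlapped, and both libraries of T15 were the highest. The other receptors were far less abundant, with means of 40.4 TPM for *Nbr1*, 19.8 TPM for *Calcoco1* and 13.7 TPM for *Optn*.

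The 5 Atg8 genes are alternative membrane tags, and together they summed to 1155 to 1532 TPM per library, 40.6% to 45.1% of the level of all 43 genes. *Gabarap* was the main one in every library, at 592, 618 and 668 TPM in untreated WT, 525, 658 and 565 TPM in WT with IL-4, 532, 662 and 560 TPM in untreated KI and 519, 612 and 582 TPM in KI with IL-4. It had the narrowest range of all members, the highest library being 1.29 times the lowest, and its groups overlapped. *Map1lc3b*, the LC3 gene most used as a marker of autophagosomes, was at 297, 295 and 242 TPM in untreated WT, 243, 242 and 285 TPM in WT with IL-4, 372, 301 and 273 TPM in untreated KI and 349, 318 and 260 TPM in KI with IL-4. The untreated WT and KI libraries of *Map1lc3b* overlapped, as did those after IL-4. *Gabarapl2* was at 227, 192 and 161 TPM in untreated WT, 176, 170 and 191 TPM in WT with IL-4, 251, 193 and 221 TPM in untreated KI and 201, 181 and 199 TPM in KI with IL-4, again with overlap between the genotypes. *Map1lc3a*, the other LC3 gene, was at 71.7 to 229 TPM, and its lowest and highest libraries were both KI. Its mean difference between KI and WT was 0.54 (SE 0.25, limma F-test adjusted p = 0.479). The difference was 0.26 without T15 and 0.80 without T32.

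**Figure D2:**
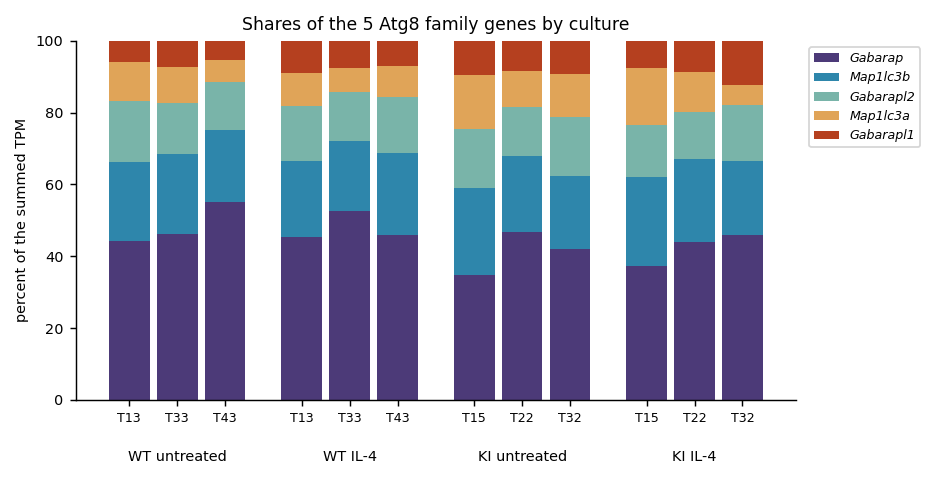
Stacked bars give the share of each of the 5 Atg8 genes in their summed TPM, in percent, for each library, grouped by genotype and treatment. *Gabarap* holds 34.7% to 55.2% while *Map1lc3b* has a median of 21.7% and the top segment, *Gabarapl1*, holds 5.29% to 12.2%.

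Within other small families 1 gene led in most libraries, with *Ulk1* ahead of *Ulk2* in T15 with IL-4 and *Atg2b* ahead of *Atg2a* in untreated T43 as the exceptions among the pairs named here. *Ulk2* gave 49.5% to 81.0% of the summed level of the kinase pair *Ulk1* and *Ulk2*, which act at initiation. *Atg2a* gave 45.6% to 80.6% of the level of the lipid transfer pair *Atg2a* and *Atg2b*, *Wipi2* 56.7% to 83.9% of that of the PI3P-binding pair *Wipi1* and *Wipi2*, and *Sesn1* 67.5% to 89.7% of that of *Sesn1* and *Sesn2*. Subunits of 1 complex differed widely in level, as *Becn1* had a mean of 128 TPM and its partners *Pik3c3*, the kinase itself, and *Pik3r4* had 14.5 and 10.9 TPM. Genes of the mTOR complexes were low, with means of 8.02 TPM for *Rptor* (mTORC1), 6.00 TPM for *Rictor* (mTORC2) and 4.21 TPM for *Mtor*, whereas the activator *Rheb* was at 213 TPM.

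Variation between cultures of 1 group set the precision. The SD within groups on the log2(TPM + 1) scale was 0.14 for *Rheb*, the lowest of the 43, had a median of 0.33 and reached 0.71 for *Rb1cc1*, a scaffold of the Ulk1 complex. *Rb1cc1* was at 5.82 TPM in untreated T33 and 5.72 TPM in T32 with IL-4 but between 14.2 and 25.7 TPM in the other 10 libraries. *Tsc1* was at 16.7 TPM in untreated T32 and between 2.85 and 6.98 TPM elsewhere. Such single libraries weigh heavily in groups of 3.

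The first comparison asked how the pathway differs between KI and WT microglia. With the moderated F-test of limma for genotype (the genotype and interaction coefficients together), 0 of the 42 members tested passed an adjusted p of 0.05, where 185 of 11204 genes did (1.65%). At an unadjusted p under 0.05 there were 4 members (9.52%) and 1799 of all genes (16.1%). With culture as a random replicate block the numbers were 0 members and 77 genes (0.687%). A test of the genotype difference averaged over both treatments, which spends 1 coefficient instead of 2, called 2 members (4.76%), *Rheb* and *Gabarapl1*, both higher in KI, beside 575 genes (5.13%), 442 higher and 133 lower, so the members' share was near that of all genes. With the block added, a choice made after the values were seen, the adjusted p of this test was 0.0522 for *Rheb* and 0.0750 for *Gabarapl1*, and neither call held.

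In the sign and the median of the genotype difference the members were near all genes tested. The average difference between KI and WT was above 0 for 28 of 42 (66.7%), beside 63.1% of all genes tested, with a median of 0.17 beside 0.13 on the log2(TPM + 1) scale. The median gene thus lay 0.13 above 0 as deposited, and the differences, intervals and tests given here are set against 0 and not against that shift. With quantile normalization the members' median was -0.045 beside -0.063 for all genes, and with median-ratio scaling 0.046 beside 0.018. By role, the difference was above 0 for 4 of 4 receptors, 4 of 5 Atg8 genes and 1 of 5 genes of the PI3-kinase complex, and these counts were the same with quantile normalization and with median-ratio scaling. It was above 0 for 5 of 5 initiation genes as deposited, but for 2 with quantile normalization and 3 with median-ratio scaling, and for 6 of 10 conjugation and processing genes as deposited, but for 2 with either scaling. For the genes of lipid transfer and PI3P effectors it was 3 of 5 under each scaling. The mTOR complexes and mTOR control had 2 of 3 and 3 of 5, and 1 and 2 with quantile normalization.

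**Figure D3:**
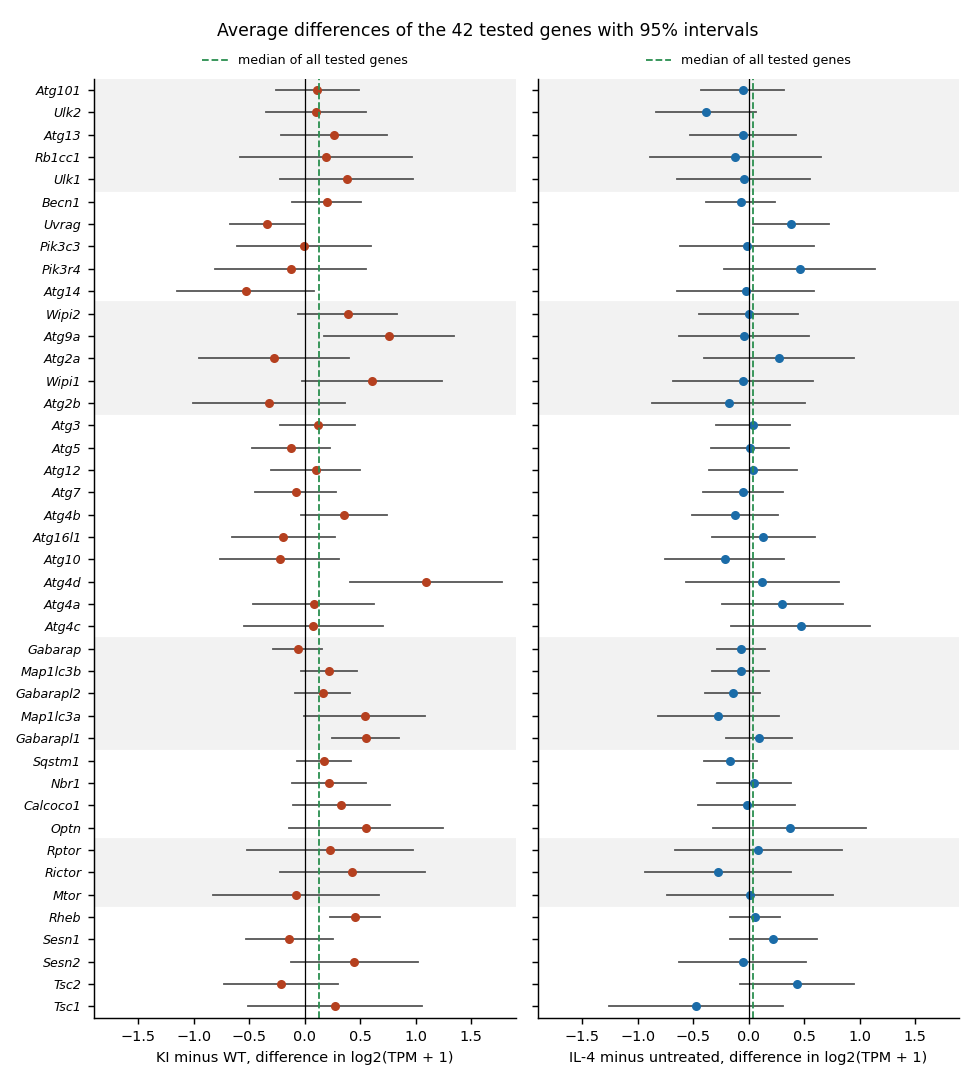
Average differences of the 42 tested members on the log2(TPM + 1) scale with unadjusted 95% intervals from limma, KI minus WT on the left and IL-4 minus untreated on the right. The dashed line is the median of all 11204 genes tested (0.13 and 0.04). *Rheb*, *Gabarapl1*, *Atg4d* and *Atg9a* have intervals above 0 on the left and *Uvrag* on the right, and the other intervals include 0.

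*Rheb* (chr5:24802823-24842624, minus strand, GRCm38), the activator of mTORC1, separated the genotypes in every library. It was measured at 164, 184 and 165 TPM in untreated WT and 166, 197 and 200 TPM in WT with IL-4. In KI it was at 263, 211 and 271 TPM untreated and at 248, 253 and 231 TPM after IL-4. The lowest KI library, untreated T22, lay above the highest WT library, T43 with IL-4. The average difference was 0.45 (SE 0.11, 95% interval 0.23 to 0.68, limma F-test adjusted p = 0.0836), 0.53 in untreated libraries and 0.38 after IL-4, and it ranged from 0.40 to 0.50 as each culture was left out. It was 0.39 with quantile normalization and 0.33 with median-ratio scaling.

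*Gabarapl1* (chr6:129533160-129542346, plus strand), the least abundant of the 5 Atg8 genes by its mean, was at 79.6, 99.6 and 64.1 TPM in untreated WT and 103, 96.0 and 87.8 TPM in WT with IL-4. In KI it was at 148, 121 and 125 TPM untreated and at 106, 119 and 155 TPM after IL-4. All 6 KI libraries lay above all 6 WT libraries, though T15 and T13 after IL-4 were close. The average difference was 0.55 (SE 0.14, 95% interval 0.25 to 0.85, limma F-test adjusted p = 0.109) and 0.44 to 0.63 with each culture left out. The gene overlaps an annotated transcript on the opposite strand, *1700101I11Rik*, and whether strand was used in counting is not given in the sources used here.

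*Atg4d* (chr9:21265293-21277772, plus strand), 1 of 4 proteases that trim and release Atg8 proteins, was at 3.02, 8.32 and 17.6 TPM in untreated WT and 10.6, 10.2 and 11.2 TPM in WT with IL-4. In KI it was at 19.1, 18.5 and 29.5 TPM untreated and at 20.1, 20.8 and 17.8 TPM after IL-4. The genotypes did not overlap, the closest being untreated T43 and T32 with IL-4, and untreated WT cultures were spread the widest. The average difference was 1.09 (SE 0.32, limma F-test adjusted p = 0.168, and 0.0655 with 1 coefficient), the largest of the 42. It was 0.80 to 1.37 with each culture left out. *Atg4d* shares its position with *Kri1* on the opposite strand.

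*Rheb*, *Gabarapl1* and *Atg4d* were thus the 3 members above WT in all KI libraries (7.14% of 42, beside 2.3% of all genes tested), and 0 members were below (beside 0.482%). *Atg9a* (chr1:75180860-75192196, minus strand), a scramblase of the growing membrane, was at 11.2, 10.5 and 11.1 TPM in untreated WT, 14.6, 14.2 and 11.9 TPM in WT with IL-4, 29.9, 24.5 and 19.3 TPM in untreated KI and 30.9, 8.90 and 22.8 TPM in KI with IL-4. The untreated groups were apart, and T22 with IL-4 was below every WT library. Its average difference was 0.76 (SE 0.27, limma F-test adjusted p = 0.252), 0.51 without T15 and 1.00 without T22. The gene overlaps *Ankzf1* on the opposite strand.

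**Figure D4:**
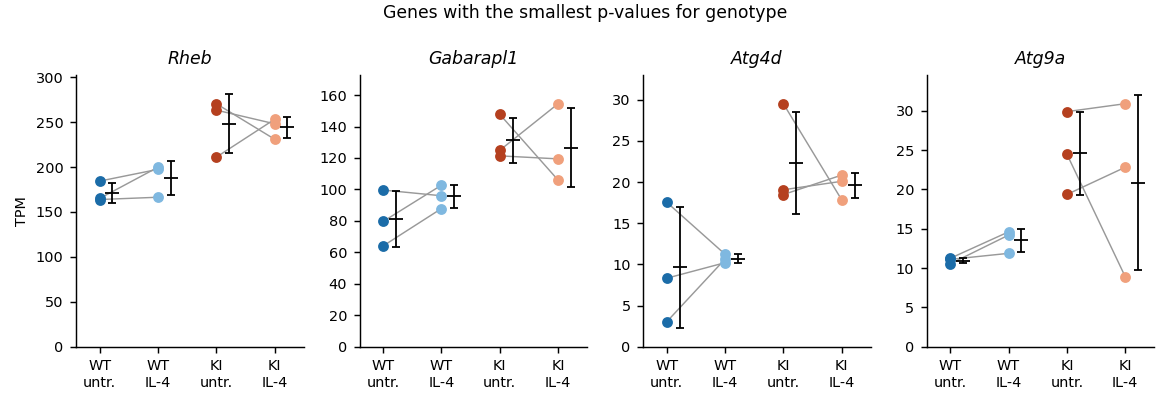
TPM of *Rheb*, *Gabarapl1*, *Atg4d* and *Atg9a* in each library, with grey lines joining the untreated and IL-4 libraries of a culture and black marks giving the mean and SD of each group of 3. KI points lie above WT points for the first 3 genes, and 1 KI library of *Atg9a*, T22 with IL-4, is lowest of all.

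These differences stood beside a change in the cell markers. The 18 microglial markers had a median difference of -0.65, and 6 of them (33.3%, beside 1.65% of all genes tested) passed limma's F-test as lower in KI. *Trem2*, the edited gene, is among the 18 and among the 6. The 9 tested astrocyte markers had a median of 1.71 and 0 calls, with 5 at an unadjusted p under 0.05 (55.6%, beside 16.1%). Of 5 tested fibroblast and mural markers 2 (40%) passed as higher, and of 5 tested oligodendrocyte lineage markers 1 (20%). Without T15, the culture with the most astrocyte marker RNA, the difference was 0.42 for *Rheb*, 0.56 for *Gabarapl1*, 1.13 for *Atg4d* and 0.51 for *Atg9a*. The summed astrocyte level of the other KI cultures, 294 to 1004 TPM, was still above the 217 to 285 TPM of T33 and T43, while T13 had 865 and 752 TPM. The summed fibroblast and mural level was higher in every KI than in any WT library. The part of these cell types in the result was not tested.

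In untreated cultures 5 members lay wholly above WT in KI (11.9%, beside 13.6% of all genes tested), the 4 just described and *Rptor*, and 3 lay wholly below (7.14%, beside 4.55%). Those 3 were *Uvrag* and *Atg14*, which bring the PI3-kinase complex to different membranes, and *Atg2b*. *Uvrag* was at 33.8, 35.4 and 34.3 TPM in untreated WT and 26.7, 22.4 and 21.8 TPM in untreated KI, and after IL-4 at 34.5, 34.6 and 51.2 TPM in WT and 39.4, 34.4 and 33.2 TPM in KI. Its untreated difference was -0.53 (SE 0.22, limma adjusted p = 0.251) and its difference after IL-4 was -0.15, where the genotypes overlapped. *Atg14* was at 16.9, 15.5 and 12.6 TPM in untreated WT and 8.86, 8.61 and 3.94 TPM in untreated KI, and after IL-4 at 9.74, 10.5 and 9.96 TPM in WT and 5.66, 11.4 and 14.1 TPM in KI. Its untreated difference was -1.03 (SE 0.40, limma adjusted p = 0.220), beside -0.04 after IL-4. *Atg2b* was near the filter, at 4.33, 4.50 and 4.49 TPM in untreated WT and 1.89, 2.87 and 3.60 TPM in untreated KI.

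After IL-4, 8 members lay wholly above WT in KI (19%, beside 12.7% of all genes tested). They were *Rheb*, *Gabarapl1*, *Atg4d*, the protease *Atg4b*, the receptor *Nbr1*, the kinase subunit *Pik3r4*, the PI3P effector *Wipi1* and the stress sensor *Sesn2*. *Atg10*, an enzyme of Atg12 conjugation, lay wholly below (2.38%, beside 5.79%). *Atg4b* was at 30.4, 31.1 and 25.4 TPM in untreated WT, 18.1, 22.1 and 23.1 TPM in WT with IL-4, 21.5, 34.2 and 35.1 TPM in untreated KI and 38.3, 28.2 and 36.2 TPM in KI with IL-4. Its difference after IL-4 was 0.67 (SE 0.26, limma adjusted p = 0.399), beside 0.03 in untreated cultures, where the genotypes overlapped. The 4 Atg4 proteases summed to 51.3 to 58.1 TPM in WT and 77.1 to 82.8 TPM in KI after IL-4, and to 51.5 to 62.9 TPM and 60.7 to 86.9 TPM untreated.

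The second comparison asked whether IL-4, which drives microglia towards an anti-inflammatory state, moved the pathway. With limma's F-test 0 of 42 members passed, and 0 had an unadjusted p under 0.05, where 100 of 11204 genes passed (0.893%) and 814 (7.27%) were under the unadjusted value. With culture as a fixed block the counts were 0 members and 240 genes (2.14%), and with 1 coefficient they were 0 members and 151 genes (1.35%), with 1 member, *Uvrag*, at an unadjusted p under 0.05. The median IL-4 difference was -0.022 for the members and 0.043 for all genes. The estimates lay between -0.47 (*Tsc1*) and 0.47 (*Atg4c*), and the 95% interval lay within 1 log2 unit of 0 for 38 of 42 members and within 0.5 for 15.

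**Figure D5:**
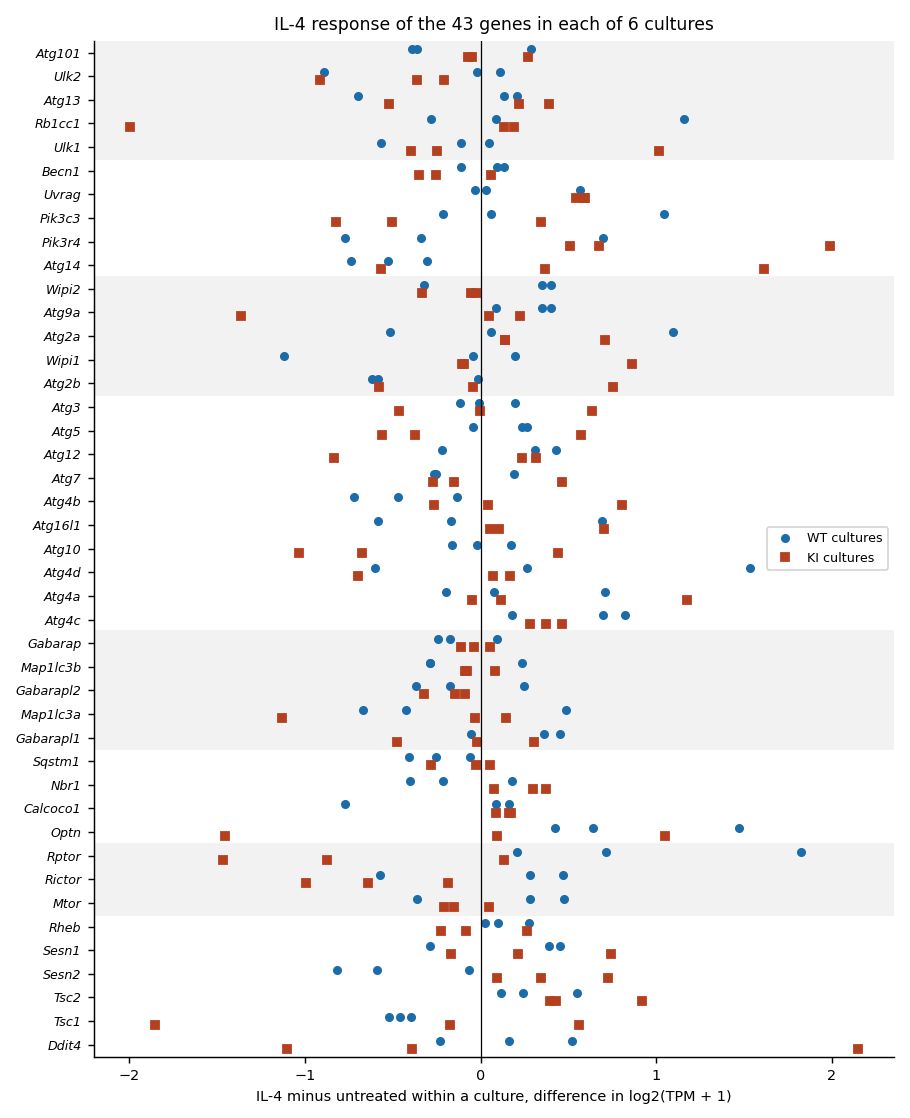
IL-4 minus untreated in log2(TPM + 1) for each of the 43 members, 1 point per culture, with WT cultures as blue circles and KI cultures as red squares. Points of most genes fall on both sides of 0, *Atg4c* and *Tsc2* lie above 0 in all 6 cultures, and *Sesn2* lies below 0 in WT and above 0 in KI cultures.

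*Tsc2*, which shuts Rheb off, was at 12.1, 9.77 and 13.4 TPM in untreated WT, 14.5, 10.7 and 20.1 TPM in WT with IL-4, 8.77, 7.06 and 11.3 TPM in untreated KI and 11.9, 14.2 and 15.6 TPM in KI with IL-4. Each culture was higher with IL-4, and the genotypes overlapped. Its average difference was 0.44 (SE 0.24, limma F-test adjusted p = 0.918) and did not pass. *Atg4c*, another Atg4 protease, was higher by 0.18 to 0.82 in each culture, with an average of 0.47 (SE 0.29, limma F-test adjusted p = 0.961). These 2 genes (4.76%) were the members higher in all 6 cultures, beside 5.73% of all genes tested, and 0 were lower in all 6, beside 2.51%. *Uvrag*, with the smallest p of the members, was higher in 5 of 6 cultures, by 0.54 to 0.59 in KI. Its average difference was 0.38 (SE 0.16, limma F-test adjusted p = 0.701, and 0.527 with the block).

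The third comparison was whether the IL-4 response differed between the genotypes. The interaction called 0 of 42 members and 0% of the 11204 genes with limma, and 1 member, *Rptor* (2.38%), beside 357 genes (3.19%), had an unadjusted p under 0.05. *Rptor*, the substrate-binding subunit of mTORC1, was at 8.40, 1.93 and 5.38 TPM in untreated WT, 9.85, 9.35 and 9.46 TPM in WT with IL-4, 9.47, 12.4 and 10.2 TPM in untreated KI and 10.5, 6.33 and 3.05 TPM in KI with IL-4. All WT cultures were higher with IL-4, and 2 of 3 KI cultures were lower. The interaction was -1.65 (SE 0.70, limma adjusted p = 1.00). *Pik3r4* was at 19.3, 10.6 and 6.59 TPM in untreated WT, 10.9, 8.20 and 11.3 TPM in WT with IL-4, 9.77, 7.70 and 3.21 TPM in untreated KI and 16.2, 11.4 and 15.7 TPM in KI with IL-4. It was higher with IL-4 in all KI cultures and in 1 of 3 WT cultures, with an interaction of 1.19 (SE 0.63, limma adjusted p = 1.00), and 0.73 without T32. Precision was low here, since only 12 of 42 intervals of the interaction lay within 1 log2 unit of 0, against 32 for genotype and 38 for IL-4.

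Other genes of the pathway were read from lists of 13 further autophagy genes, 12 receptors, 12 fusion genes, 17 mTOR complex subunits and targets, 13 Rag, Ragulator and folliculin genes, 14 GATOR and amino acid sensing genes and 10 AMPK and Lkb1 genes. Of these, 83 were tested, and 1 passed limma's F-test for genotype and 0 for IL-4. That is 1.2% of the 83 for genotype, beside 1.65% of all genes tested, and 10.8% had an unadjusted p under 0.05, beside 16.1%. For IL-4 3 genes (3.61%) were under that value, beside 7.27%. With 1 coefficient the calls were 2 for genotype (2.41%, beside 5.13%) and 0 for IL-4. The gene called by the F-test was *Ddit4l*, a relative of the member *Ddit4* and likewise an inhibitor of mTORC1. Its TPM in untreated WT was 13.2, 5.53 and 5.38, followed by 19.2, 12.6 and 6.50 TPM in WT with IL-4, 101, 50.6 and 40.1 TPM in untreated KI and 56.0, 33.9 and 21.2 TPM in KI with IL-4. All KI libraries lay above all WT libraries, T15 was the highest in each treatment, and T13, which had the most astrocyte marker RNA of the WT cultures, was the highest in WT. The difference was 2.16 (SE 0.34, limma adjusted p = 0.0148, and 0.0186 with the block) and 1.79 to 2.51 with each culture left out, where the call was lost without T15 (1.79, adjusted p = 0.0619), T33 (2.09, 0.134) or T43 (1.87, 0.0964). The part of astrocyte RNA in it was not tested.

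The median genotype difference of these lists lay between -0.063 (autophagosome-lysosome fusion) and 0.43 (mTOR complex subunits and targets), beside 0.13 for all genes. The 13 tested mTOR complex subunits and targets had 1 call (7.69%, beside 1.65% of all genes), *Ddit4l*, and 4 at an unadjusted p under 0.05 (30.8%, beside 16.1%). The 12 tested GATOR and amino acid sensing genes had a median of 0.27, with 0 calls and 0 at an unadjusted p under 0.05 in limma. Of 10 transcription factors of autophagy and stress 0 passed limma's F-test for genotype, and 0 of 11 tested Atf4 targets and 0 of 7 Nfe2l2 targets did. At an unadjusted p under 0.05 there were 0 of the factors, 3 of the Atf4 targets (27.3%) and 3 of the Nfe2l2 targets (42.9%), beside 16.1% of all genes. For IL-4 they had 0 calls in the F-test as well. At an unadjusted p under 0.05 for IL-4 there were 2 of the factors (20%), 0 of the Atf4 targets and 1 of the Nfe2l2 targets (14.3%), beside 7.27% of all genes. With 1 coefficient 1 of 7 Nfe2l2 targets (14.3%, beside 5.13% of all genes) passed as higher in KI, *Srxn1* (0.72, SE 0.18, limma adjusted p = 0.0382, and 0.0623 with the block). For IL-4 1 of 7 (14.3%, beside 1.35%) passed as lower, *Hmox1* (-0.55, SE 0.12, limma adjusted p = 0.0342), which with the block also passed the F-test (adjusted p = 0.0125). The IL-4 difference was above 0 for 6 of the 7 Nfe2l2 targets, with a median of 0.12. Of 7 p53 targets, 3 (42.9%) had an unadjusted p under 0.05 for genotype, beside 16.1% of all genes, 1 (14.3%) passed the F-test, beside 1.65%, and 2 (28.6%) passed with 1 coefficient, beside 5.13%. The list was chosen with earlier results known, so these shares are a description. Among these targets, a class that includes sestrins, *Phlda3*, an inhibitor of Akt, passed the F-test for genotype (43.6 to 80.1 TPM in WT and 66.5 to 157 TPM in KI, with overlap, difference 1.11, SE 0.21, limma adjusted p = 0.0375). The call was lost with the block (adjusted p = 0.0644) and without any 1 of 5 cultures, and was kept without T32 (adjusted p = 0.0278). The other gene called with 1 coefficient was *Trp53inp1*, which takes part in autophagy (0.92, SE 0.23, limma adjusted p = 0.0345, and 0.0649 with the block).

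Promoter windows (250 bases before and 50 after the start, RefSeq, GRCm38.p6) were read for the 37 of 43 members that matched by symbol, with the motifs chosen after the results were known. The E-box core CACGTG, which is the same on both strands, was in 5 of 37 windows (*Rheb*, *Atg3*, *Atg5*, *Atg7* and *Atg14*) and in 7.24% of all 27025. The other letters, read on both strands, were CCAAT in 12 members (37.9% of all windows), TGATGNAA in 0 (4.06%), TGACNNNGC in 5 (12.5%) and TTCNNNNGAA in 1, *Gabarap* (6.99%). The sequences shown belong to the 2 members that passed the test with 1 coefficient, 5′ to 3′ on the gene's strand, with the E-box core in capitals.
Rheb: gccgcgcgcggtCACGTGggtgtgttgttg
Gabarapl1: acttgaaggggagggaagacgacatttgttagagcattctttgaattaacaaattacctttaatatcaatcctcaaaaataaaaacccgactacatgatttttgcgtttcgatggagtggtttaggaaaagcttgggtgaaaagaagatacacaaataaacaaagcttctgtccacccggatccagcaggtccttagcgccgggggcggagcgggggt
The *Rheb* stretch is at chr5:24842440-24842469 on the minus strand, with the core 96 bases before the RefSeq start, and lies inside the first exon of the gene as the annotation of the files' build draws it. A match to TGACNNNGC on the opposite strand overlaps the first bases of the E-box core. Another, on the same strand, is 247 bases before the RefSeq start and outside the stretch shown. The *Gabarapl1* stretch is at chr6:129532942-129533159 on the plus strand and ends where the annotated gene begins. None of the 5 motifs was found in the 300 bases of its window, which says only that these letters are not there.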

How the data were processed

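RNA-seq was made from 12 libraries of primary microglia. Per the labels and methods, Trim Galore was used for trimming, Salmon against GRCm38 for transcript levels, and tximport for the sums per gene. Tool versions are not given in the sources used here. The deposited table holds TPM, with 1 column for each library. TPM keeps no counts, so depth per library and counting error are unknown, and precision is given as the spread between cultures. The count model the authors used was replaced by limma for that reason.

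Gene names and coordinates came from the GRCm38 annotation. Values were taken as log2(TPM + 1), and genes with a mean above 1.5 entered a linear model with a trended prior variance (limma 3.58.1, R 4.3.3). The design had genotype, IL-4 and their interaction over all 12 libraries. P-values were adjusted by Benjamini-Hochberg across the 11204 genes, with a threshold of 0.05, and limma gave every p-value in the text. Plots and summaries used Python 3.11.15, numpy 2.4.6, pandas 2.3.3 and matplotlib 3.10.9. A difference on this scale understates the change of low genes.

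The untreated and IL-4 libraries of a culture share a culture code in the sample names, which is where the pairing comes from. Deviations from the group means correlated by 0.0792 to 0.378 between the 2 libraries of a culture, and T22 correlated more with another culture (0.188) than with itself (0.121). Without the block, the 2 libraries of a culture count as independent, which overstates the replicates for genotype. The block was random for genotype (within-culture correlation 0.198) and fixed for IL-4 and the interaction. The study calls the WT mice littermates, but the labels do not say which cultures shared a litter, so p-values cover the spread between these cultures only. A test of 1 coefficient with the block was added after the data were seen.

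The members and lists were chosen with earlier results of these data known. Every member is described, by its level, a count or a difference. Values in every library are given for members past a threshold, for the 3 with the smallest unadjusted p per test, for the 5 most abundant, and for those whose groups do not overlap with a difference above 1. *Atg9a*, *Uvrag*, *Atg14*, *Atg2b*, *Tsc2* and *Sesn2* got further values after theirs were seen. Of other genes, *Trem2* and the pathway list genes past the F-test threshold are named, and *Srxn1*, *Hmox1* and *Trp53inp1* were added after their values were seen. A Rag, Ragulator and folliculin gene called with 1 coefficient and the other cell markers called are counted but not named. The fit was tested on simulated data for 11204 genes, 200 of which carried a change of 2 log2 units. Genotype changes were found in 73.5% of these, IL-4 changes in 70% and interactions in 28.5%, with 5.16%, 6.67% and 8.06% of calls false. The simulated spread was independent for each library, so these false shares do not cover spread that 2 libraries of a culture share. The largest average genotype difference of a member was 1.09, and recovery of changes of that size was not simulated. Protein sequences were not used here.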

Additional observations from a re-analysis of the deposited data

Results flagged for a closer look

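*Sesn2*, which encodes a sestrin that restrains mTORC1, was flagged because its IL-4 response had opposite signs in the genotypes. It was lower with IL-4 in all 3 WT cultures (by -0.59, -0.82 and -0.06 on the log2(TPM + 1) scale) and higher in all 3 KI cultures (0.34, 0.72 and 0.10). The levels were 11.4, 27.9 and 12.8 TPM in untreated WT, 7.21, 15.4 and 12.2 TPM in WT with IL-4, 16.9, 15.5 and 15.8 TPM in untreated KI and 21.7, 26.3 and 16.9 TPM in KI with IL-4. The interaction was 0.88 (SE 0.53) with a limma adjusted p of 1.00, so the difference did not pass a test. The same pattern, down in WT and up in KI or the reverse, was found in 305 of 11204 genes tested (2.72%), and *Sesn2* was the 1 member with it.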

How the results depend on the processing

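Among the members, the count past the threshold for genotype moved from 0 to 2 with the test of 1 coefficient, and stayed 0 under the other alternatives run for genotype, IL-4 and the interaction. Over all genes, the 185 genotype calls became 16 with no filter on low values, 26 with no variance trend, 77 with the random replicate block, 575 with 1 coefficient, 102 in untreated and 2 in IL-4-treated libraries alone, and 3 to 191 with each culture left out (3 without T33, 16 without T43, 49 without T15, 99 without T32). The 100 IL-4 calls became 61 with no filter, 50 with no variance trend, 240 with the fixed replicate block, 151 with 1 coefficient, 64 in WT and 45 in KI cultures alone, and 46 to 143 with each culture left out (46 without T43, 51 without T33, 56 without T13, 65 without T32). The 0 interaction calls became 4 with no filter. Genotype calls split into 145 higher of 185 as deposited, 90 of 146 with quantile normalization and 130 of 192 with median-ratio scaling. Causes were not tested.

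Among the members followed one by one (*Rheb*, *Gabarapl1*, *Gabarapl2*, *Gabarap*, *Map1lc3a*, *Map1lc3b*, *Sqstm1*, *Atg4b*, *Atg4d*, *Uvrag*, *Pik3r4* and *Rptor*, each in the comparisons where its values are given), differences that changed sign were *Gabarap* for genotype without T15 (0.0017), *Rptor* for IL-4 without T15 (-0.13), without T33 (-0.14) and in KI cultures alone (-0.74; -0.14 to 0.27 with each culture left out), *Pik3r4* for IL-4 in WT cultures alone (-0.14), *Rheb* for IL-4 with quantile normalization (-0.028), without T22 (-0.012; -0.012 to 0.11 with each culture left out) and in KI cultures alone (-0.017), and *Gabarapl1* for IL-4 in KI cultures alone (-0.065). Of the 42 members, 27 kept the sign of the genotype difference over 16 alternatives (19 above and 8 below 0), 14 that of the IL-4 difference over 16, and 29 that of the interaction over 13, so that the other members changed sign under at least 1 alternative. *Rheb*, *Gabarapl1*, *Atg4d* and *Atg9a* kept that of the genotype difference, and were not among the 14 for IL-4. The *Ddit4l* call was lost with no filter (adjusted p = 0.176), with no variance trend (0.0600) and in IL-4-treated libraries alone (0.339), that of *Phlda3* with the same 3 (0.251, 0.114 and 0.395), and that of *Trem2* with no filter (0.126), no variance trend (0.0600), in IL-4-treated libraries alone (0.141) and without T33 (0.106) or T43 (0.0766). The replicate block ended the F-test call of *Phlda3* and the calls of *Rheb*, *Gabarapl1*, *Srxn1* (adjusted p = 0.0623) and *Trp53inp1* (0.0649) with 1 coefficient, added an F-test call of *Hmox1* for IL-4 (0.0125), and changed no other call among the genes named. With 3 cultures a group and no read counts, changes under 1 log2 unit in low genes were not resolved.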
